A study of Homo sapiens with 12 samples.

Results

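The CXCR2 ligand chemokines of IMR90 cells were examined: CXCL1, CXCL2, CXCL3, CXCL5, CXCL6 and CXCL8. These 6 genes were taken by symbol from the 16383 genes listed in the table. The rule uses no measured value, but it was proposed with earlier results of these data known. IMR90 is an established line of human lung fibroblasts, and the cells were wild type in all groups. Poly(A) RNA was sequenced from 12 libraries, 3 in each of 4 groups. The first group was proliferating cells without treatment. The other groups were irradiated with 20 Gy over 10 min, which makes these cells senescent, and received DMSO, 2 µM palbociclib or 2 µM ruxolitinib. Treatment was on days 4, 6, 8 and 10 after irradiation, with harvest on day 11. Palbociclib inhibits the cyclin-dependent kinases CDK4 and CDK6, and ruxolitinib inhibits the Janus kinases JAK1 and JAK2. All groups are 1 cell line in culture, without the neutrophils on which these chemokines act, and the proliferating cells differed from the DMSO cells in both irradiation and DMSO. The labels do not say whether the 3 libraries of a group came from separate cultures, so p-values measure the spread between these libraries, which may be technical.

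CXCR2 ligands are small secreted chemokines that carry a glutamate, leucine and arginine motif ahead of the first cysteine. They bind CXCR2, a G protein-coupled receptor through which neutrophils are drawn to sites of injury, and CXCL8 (interleukin-8) and CXCL6 also bind CXCR1. Fibroblasts transcribe these genes after interleukin-1 or tumour necrosis factor activates NF-kB, with C/EBP and AP-1 factors acting beside it, and their short-lived mRNAs are controlled by decay factors. The ligands belong to the secretome of senescent cells, in which CXCR2 signalling is known to reinforce the growth arrest.

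The ligands lie together on chromosome 4 and share a promoter element. In RefSeq coordinates of GRCh38.p14, the 6 genes span 358.6 kb. CXCL8 (chr4:73740569-73743716), CXCL6 (chr4:73836678-73838760) and CXCL1 (chr4:73869393-73871308) are on the plus strand. CXCL5 (chr4:73995642-73998677), CXCL3 (chr4:74036589-74038689) and CXCL2 (chr4:74097040-74099195) follow on the minus strand. The canonical transcript of each member has 4 exons. All 6 members were found in the RefSeq promoter table. The 150 bases before each RefSeq start are shown because they hold the 2 elements common to all 6 genes. Capitals mark the NF-kB core GGAATTTCC and, nearer to the start, the A/T-rich box ATAAA. Each sequence reads 5′ to 3′ on the gene's own strand and ends at the base before the start.
CXCL1: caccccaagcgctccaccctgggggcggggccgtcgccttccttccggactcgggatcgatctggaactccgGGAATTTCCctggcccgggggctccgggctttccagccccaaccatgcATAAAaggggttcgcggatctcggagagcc
CXCL2: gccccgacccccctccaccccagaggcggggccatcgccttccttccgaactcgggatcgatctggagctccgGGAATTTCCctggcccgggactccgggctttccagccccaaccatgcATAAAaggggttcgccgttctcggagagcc
CXCL3: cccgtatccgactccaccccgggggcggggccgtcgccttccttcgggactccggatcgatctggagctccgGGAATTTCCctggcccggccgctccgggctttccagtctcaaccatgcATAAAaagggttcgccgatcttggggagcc
CXCL5: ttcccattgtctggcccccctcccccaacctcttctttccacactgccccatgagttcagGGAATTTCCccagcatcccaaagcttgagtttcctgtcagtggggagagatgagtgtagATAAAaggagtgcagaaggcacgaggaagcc
CXCL6: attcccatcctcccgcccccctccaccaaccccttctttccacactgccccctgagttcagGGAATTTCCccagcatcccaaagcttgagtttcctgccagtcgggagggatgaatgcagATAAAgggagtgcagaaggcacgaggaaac
CXCL8: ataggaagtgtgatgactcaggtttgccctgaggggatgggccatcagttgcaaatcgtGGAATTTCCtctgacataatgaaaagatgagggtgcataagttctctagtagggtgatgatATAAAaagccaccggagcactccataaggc

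The NF-kB core was present in 6 of 6 member promoters, always on the gene's own strand. It began 91 bases before the start in CXCL8, 90 in CXCL5, 89 in CXCL6, 78 in CXCL1 and CXCL3 and 77 in CXCL2. Of all 35114 RefSeq promoters of the same length (250 bases before to 50 after the start, searched on both strands), 162 held GGAATTTCC (0.461%). The promoters of CXCL10 and CXCL11, CXC chemokines that bind another receptor, also hold it, on the other strand, from 176 and 75 bases before the start. On the gene's own strand and starting 100 to 60 bases before the start, it was found in 19 promoters (0.0541%), the 6 members included. With a further G ahead of the core, a form that overlaps it, the match held in 5 members, CXCL8 being the exception, and in 0.145% of promoters. ATAAA starting 35 to 25 bases before the start was in 6 members and in 4.1% of all promoters. GGAATTTCC and ATAAA are the forms that all 6 members share, and both windows enclose the members' own positions. The shares of all promoters therefore describe these sequences and are not a test. The members are gene duplicates in part, so these matches are not independent of each other. Over the 250 bases before the start, CXCL5 and CXCL6 were 85.3% identical, CXCL1 and CXCL3 81.4%, and CXCL2 and CXCL3 73.3%, while CXCL8 matched the others at 39.1% to 42.8%. GENCODE models of CXCL3, CXCL6 and CXCL8 begin 118, 38 and 50 bases upstream of the RefSeq start.

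The other motifs searched, on both strands, were not shared by the members. The AP-1 motif TGANTCA was found in CXCL8 alone among the members, 137 bases before the start, and in 7.71% of all promoters. The STAT motif TTCNNNGAA was in CXCL5 and CXCL6, where it overlaps the NF-kB core, and in 7.66% of promoters. The interferon response motif (ISRE) was in 0 members, and in 3.57% of all promoters, that of CXCL10 included. The C/EBP motif TTGCNNAA was in CXCL2 alone among the members (10.5% of all promoters). The search took exact strings only: CXCL8 holds ttgcaaat, which differs from that motif at the last base and was not counted. The GC box GGGCGG was in CXCL1, CXCL3 and CXCL6 (45% of all promoters). TATAAA, which contains the ATAAA of that site, was in CXCL8 alone among the members (11.5% of all promoters).

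In proliferating cells CXCL8 was the most abundant ligand and the others were near the limit of detection. Values are normalized counts, that is, gene reads divided by 1 factor per library, and are given by library in the order A125, A126 and A127 for proliferating cells, A116, A117 and A118 for DMSO, A119, A120 and A121 for palbociclib, and A122, A123 and A124 for ruxolitinib. CXCL8 stood at 79.9, 75.4 and 60.9 in the proliferating libraries, and CXCL5 at 9.34, 12.2 and 14.3. CXCL1 stood at 6.23, 0 and 4.76, CXCL2 at 2.08, 3.33 and 0, CXCL3 at 2.08, 2.22 and 1.90, and CXCL6 at 0, 0 and 1.90. CXCL2, CXCL3 and CXCL6 had 3 reads or fewer in each proliferating library, so folds against that group are given for them as lower bounds, computed against 3 reads per library.

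Irradiated cells given DMSO held far more RNA of every ligand than proliferating cells. CXCL8, the main human neutrophil attractant, stood at 1564, 1674 and 1835 in the DMSO libraries, and its mean rose from 72.1 ± 9.91 to 1691 ± 136 (SD, n = 3), a 23.5-fold difference. CXCL1, first known as a growth-regulated melanoma factor, stood at 118.8, 156.3 and 134.1 with DMSO, on average 37.2-fold above its proliferating level, which rests on 6, 0 and 5 reads (57.3-fold without A125 and 24.8-fold without A126). The lowest DMSO library of each of the 2 genes was many times above the highest proliferating one. CXCL5, an epithelial-derived neutrophil attractant, rose less, to 75.2, 105.4 and 115.6, or 8.27-fold, from a proliferating level that was the highest after CXCL8.

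The paralogs CXCL2 and CXCL3 reached similar levels. CXCL2 stood at 52.5, 58.0 and 47.4 with DMSO, at least 17.0-fold higher than in proliferating cells. CXCL3 reached 59.4, 61.6 and 61.3, at least 19.6-fold higher. CXCL6, the granulocyte chemotactic protein closest in sequence to CXCL5, reached 10.9, 10.7 and 10.4, at least 3.44-fold higher. The DMSO and proliferating libraries did not overlap for any of the 6 ligands, where 34.3% of all genes tested had every DMSO library above every proliferating one.

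**Figure D1:**
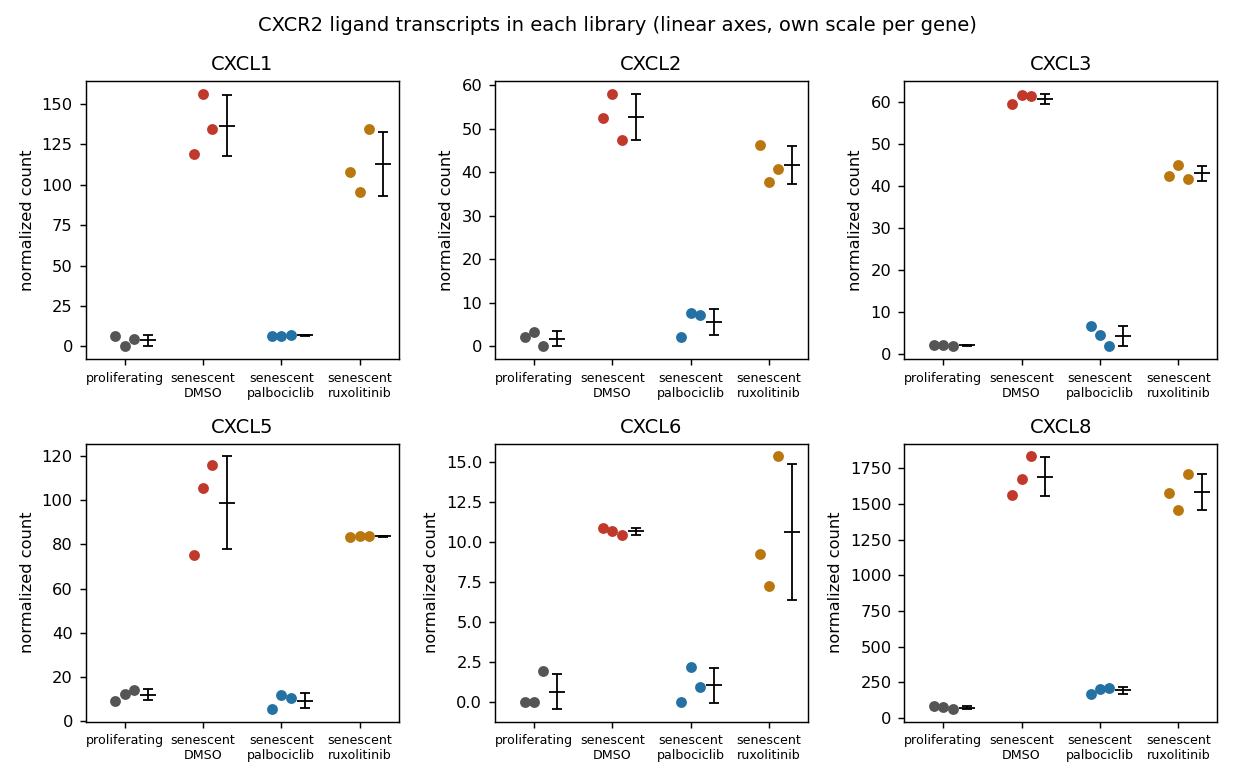
Normalized counts of the 6 CXCR2 ligands in each library, on linear axes with a scale of their own per gene. Points are libraries in the order named in the text, and the bar beside them is the mean with its SD (n = 3). For every ligand the DMSO and ruxolitinib libraries lie above all proliferating and palbociclib libraries.

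Differences were tested on the log2(value + 1) scale, where folds of genes with few reads come out too small. CXCL1 rose by 5.30 (SE 0.51, adjusted p 1.51e-07), CXCL8 by 4.54 (SE 0.11, 2.58e-14), CXCL2 by 4.50 (SE 0.49, 6.07e-07), CXCL3 by 4.33 (SE 0.34, 1.46e-08) and CXCL5 by 2.94 (SE 0.27, 7.57e-08) with irradiation and DMSO. These are limma estimates, adjusted by the Benjamini-Hochberg method over the 11242 genes whose mean was 10 or more, and an adjusted p under 0.05 counts as a call. All 5 ligands tested were called higher, where 33.0% of all genes tested were called higher and 39.3% lower. CXCL6 had a mean under 10 and was not tested there. In the fit without that filter its log2 difference was 3.03 (adjusted p 7.25e-05). A ligand that passed the filter only through its irradiated libraries had to differ, so the count describes the members and adds no support. Ordered from the highest difference among all genes tested, they stood at rank 18 for CXCL1, 40 for CXCL8, 42 for CXCL2, 49 for CXCL3 and 173 for CXCL5.

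All ligands stood far lower with palbociclib than with DMSO. CXCL8 stood at 166.0, 204.7 and 207.9 in the palbociclib libraries, 8.77-fold below DMSO. CXCL1 stood at 6.64, 6.57 and 7.11, which was 20.1-fold below DMSO and the largest fall among the 5 tested ligands. CXCL5 stood at 5.53, 12.04 and 10.7, or 10.5-fold lower. For all 6 ligands every palbociclib library was below every DMSO library, where 25.7% of all genes tested showed this.

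CXCL2 and CXCL3 were scattered over few reads with palbociclib. CXCL2 stood at 2.21, 7.66 and 7.11, on average 9.30-fold below DMSO, and CXCL3 at 6.64, 4.38 and 1.78, or 14.2-fold below. CXCL6 stood at 0, 2.19 and 0.888, no more than 2 reads in a library and at least 3.45-fold lower than with DMSO. The limma differences between palbociclib and DMSO were -4.14 for CXCL1 (SE 0.51, adjusted p 1.03e-05), -3.67 for CXCL3 (SE 0.34, 5.23e-07), -3.30 for CXCL5 (SE 0.27, 1.11e-07), -3.13 for CXCL2 (SE 0.49, 9.47e-05) and -3.13 for CXCL8 (SE 0.11, 1.21e-11). All 5 tested ligands were called lower, where 22.3% of all genes tested were called lower and 26.0% higher. From the lowest difference upward they ranked 7 (CXCL1), 18 (CXCL3), 32 (CXCL5), 43 (CXCL2) and 44 (CXCL8) of 11242.

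With ruxolitinib the ligands stayed far nearer to their DMSO than to their proliferating level, and none was called. CXCL8 stood at 1581, 1461 and 1713, overlapping the DMSO libraries, with a difference of -0.09 and a 95% interval of -0.33 to 0.14 (adjusted p 0.759). CXCL1 stood at 108.0, 95.4 and 134.4 (difference -0.28, interval -1.37 to 0.81, adjusted p 0.860) and CXCL5 at 83.3, 83.7 and 83.9 (-0.21, interval -0.78 to 0.36, 0.772). Both overlapped their DMSO libraries. CXCL6 stood at 9.26, 7.20 and 15.3, on both sides of its DMSO values.

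CXCL2 and CXCL3 were lower in every ruxolitinib library than in any DMSO library, by differences that did not pass the test. CXCL2 stood at 46.3, 37.8 and 40.6 (-0.33, interval -1.38 to 0.71, adjusted p 0.814). CXCL3 stood at 42.4, 45.0 and 41.5, with a mean of 43.0 ± 1.82 against 60.7 ± 1.18 with DMSO (-0.49, interval -1.22 to 0.24, 0.549). The fit pools the spread of all 4 groups, so both intervals also carry the scatter of the few-read palbociclib libraries. For CXCL2 the few-read proliferating libraries add to it as well. Both intervals are wider than the spread of the DMSO and ruxolitinib libraries alone would give. Of all genes tested, 17.0% had 3 ruxolitinib libraries below all 3 DMSO libraries, against 2 of the 5 tested ligands. At an unadjusted p under 0.05 limma gave 0 of the 5 ligands, and the share of all genes at that threshold is not given. At an adjusted p under 0.05 limma called 0 of the 5, as did edgeR and DESeq2 on the recovered reads. Among all genes tested limma called 4.52% in either direction (1.10% higher and 3.42% lower), edgeR 556 genes and DESeq2 648. A count of 0 among 5 is near such shares and is no result about the ligands. The intervals of CXCL1, CXCL2 and CXCL3 reach below -1, so this pooled fit did not exclude a difference of that size for them. The interval of CXCL1 also carries the scatter of its proliferating libraries, with 6, 0 and 5 reads. How far these intervals reach therefore does not measure the spread of the DMSO and ruxolitinib libraries alone. The interval of CXCL8 ended at -0.33.

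**Figure D2:**
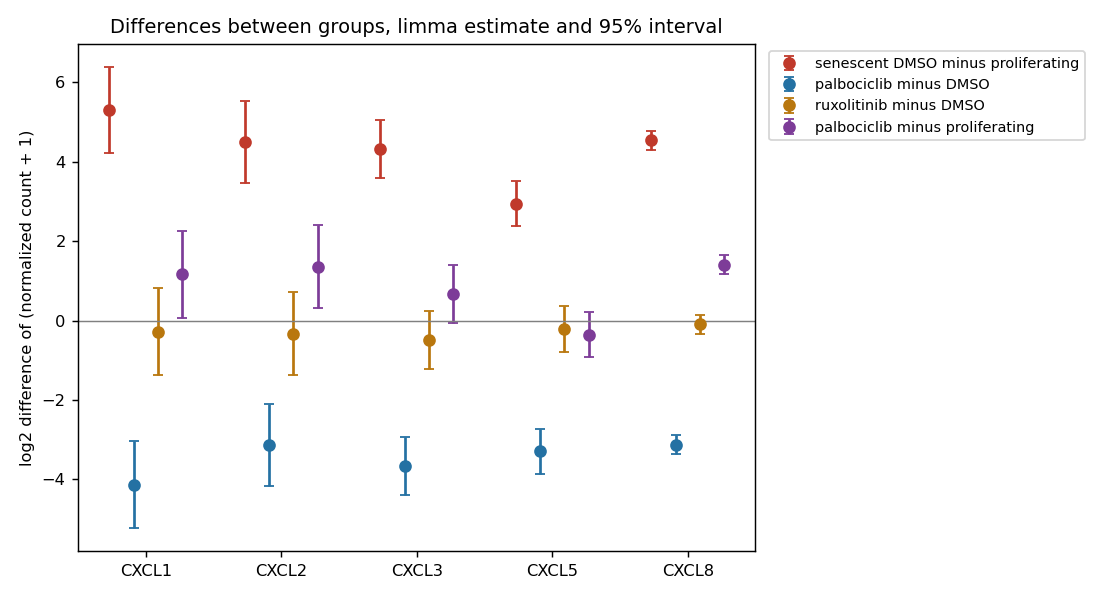
Differences between groups for the 5 tested ligands, on the log2(normalized count + 1) scale. Points are limma estimates and bars 95% intervals. The palbociclib differences from DMSO lie between -4.14 and -3.13, the ruxolitinib ones between -0.49 and -0.09.

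The inhibitors were given at the same dose and on the same days and were compared directly. All 5 tested ligands were lower with palbociclib than with ruxolitinib, where 17.6% of all genes tested were lower. The limma differences were -3.86 for CXCL1 (SE 0.51, adjusted p 2.67e-05), -3.18 for CXCL3 (SE 0.34, 3.35e-06), -3.08 for CXCL5 (SE 0.27, 3.19e-07), -3.04 for CXCL8 (SE 0.11, 2.20e-11) and -2.80 for CXCL2 (SE 0.49, 0.000338). CXCL1 had the third lowest difference of all genes tested. With ruxolitinib all 5 remained higher than in proliferating cells, by 2.73 (CXCL5) to 5.02 (CXCL1) on the log2 scale (32.6% of all genes tested were higher there). CXCL1, CXCL2 and CXCL3 passed the filter through their DMSO and ruxolitinib libraries, so the counts in these comparisons add no support either. The comparisons of the inhibitors with DMSO share the DMSO libraries.

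Palbociclib-treated cells still differed from proliferating cells in CXCL8. Its palbociclib level was 2.68-fold above the proliferating one, a difference of 1.41 (interval 1.17 to 1.65, adjusted p 1.19e-08), with no overlap between libraries. CXCL2 was also called, by 1.36 (interval 0.32 to 2.40, 0.0203), but its libraries overlapped, the group totals were 17 and 5 reads, and the call was lost without A127 (0.112), without A120 (0.0705) or without A121 (0.077). Thus 2 of the 5 tested ligands were called higher, against 35.2% of all genes tested. CXCL1 (1.16, interval 0.08 to 2.25, 0.0509) missed the threshold and passed it without A125 (0.00737) or A127 (0.0207), at equal library totals (0.0495) and at equal upper quartiles (0.0245). CXCL3 (0.66, interval -0.07 to 1.39, 0.0925) passed it without A121 (0.00446), at equal upper quartiles (0.0445) and in limma without a trend (0.0488). CXCL5 was at 9.41 ± 3.43 with palbociclib and 11.9 ± 2.48 in proliferating cells (-0.36, interval -0.93 to 0.21, 0.239), and was called lower under quantile normalization (-0.63, 0.0348). CXCL6 had 3 reads in all with palbociclib and 2 in proliferating cells.

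Expressed as the share of the irradiation increase that was absent under an inhibitor, on the linear scale of group means, palbociclib removed 92.5% of the CXCL8 increase (91.6% to 94.2% over its libraries), 97.7% for CXCL1, 92.4% for CXCL2, 96.3% for CXCL3, 103% for CXCL5 and 96.1% for CXCL6. The corresponding shares with ruxolitinib were 6.55% for CXCL8, 17.9% for CXCL1, 21.8% for CXCL2, 30.3% for CXCL3, 17.4% for CXCL5 and 0.491% for CXCL6. For CXCL8 and CXCL6 the ruxolitinib libraries lay on both sides of 0, at -1.34% to 14.2% and -46.8% to 34.4%. CXCL3 lay at 26.8% to 32.8% over the ruxolitinib libraries. The CXCL1 share ran from 1.47% to 30.9% over them. The ruxolitinib shares moved when a single library was left out, least for CXCL3 (29.0% without A124 to 32.0% without A123). The CXCL2 share ran from 17.4% without A117 to 26.4% without A122. The CXCL5 share was 27.2% without A116 and 8.46% without A118. For CXCL1 it was 11.3% without A117, 11.4% without A123, 23.0% without A116 and 26.1% without A124. The CXCL8 share was 2.19% without A118, 2.73% without A123, 10.1% without A116 and 10.5% without A124. That of CXCL6 ran from -16.5% (without A123) to 24.2% (without A124).

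The summed level of the 6 ligands averaged 2050.1 ± 162.2 in the DMSO group and 1876 ± 149 in the ruxolitinib group, against 92.2 ± 7.95 for proliferating and 220.0 ± 28.6 for palbociclib-treated cells (SD, n = 3). CXCL8 made up 82.5%, 84.5%, 78.2% and 87.7% of these sums in turn, so they mostly follow CXCL8. Without CXCL8 the sums were 359 ± 38.5, 291 ± 23.4, 20.1 ± 2.58 and 27.1 ± 5.92, which is the same order of groups. In bulk RNA, fewer cells that transcribe a ligand and less RNA per cell cannot be told apart.

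Compared per kilobase of the canonical transcript, the DMSO levels fell in the order CXCL8 (1029.8 normalized counts per kb), CXCL1 (116), CXCL3 (56.5), CXCL2 (47.2), CXCL5 (40.5) and CXCL6 (6.93). CXCL2 (SD 4.75) and CXCL5 (SD 8.62) did not differ beyond their spread. The place of CXCL3 depends on the length used: per kilobase of all its annotated exons it stood at 27.4 with DMSO, below CXCL5 (40.5) and CXCL2 (37.6), and at 19.4 with ruxolitinib, below CXCL5 (34.3) and CXCL2 (29.7). CXCL8, then CXCL1, stood first and CXCL6 last in the 3 irradiated groups with either length. In proliferating cells the order was CXCL8 (43.9 per kb), CXCL5 (4.90), CXCL1 (3.12), CXCL3 (1.92), CXCL2 (1.62) and CXCL6 (0.413). There no neighbours from CXCL5 down to CXCL6 differed beyond their SDs. With palbociclib the order was CXCL8 (117), CXCL1 (5.77), CXCL2 (5.08), CXCL3 (3.97), CXCL5 (3.86) and CXCL6 (0.667), in which the neighbours from CXCL1 to CXCL5 did not differ beyond their SDs. With ruxolitinib it was CXCL8 (965), CXCL1 (95.9), CXCL3 (40.0), CXCL2 (37.3), CXCL5 (34.3) and CXCL6 (6.90), in which CXCL3, CXCL2 and CXCL5 were within the SD of CXCL2 (3.87) of their neighbours.

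The proportions among the ligands were compared as ratios to CXCL8 within each library. CXCL5 reads were 11.7% to 23.4% of CXCL8 reads in proliferating libraries and 4.81% to 6.30% with DMSO. CXCL1 was at 7.31% to 9.34% of CXCL8 with DMSO and at 3.21% to 4.00% with palbociclib. CXCL3 was at 3.34% to 3.80% with DMSO and at 2.42% to 3.08% with ruxolitinib. None of these ranges overlapped, and the 3 changes were singled out for that reason. The log2 ratio of CXCL6, a gene with few reads, also did not overlap between DMSO and proliferating libraries. All other ligand ratios overlapped between DMSO and the group compared with it, those of CXCL2 in every comparison. The 3 changes are therefore a selection and do not show a general shift in proportions. An exact two-sided permutation test over libraries gave p = 0.1 for each of the 3 changes, the smallest p that 3 against 3 libraries allow, and 0.263 after Benjamini-Hochberg adjustment over 21 tests, so the test could not reach the threshold.

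The ligands varied together over the 12 libraries, with Pearson r between 0.885 (CXCL1 and CXCL2) and 0.970 (CXCL2 and CXCL8) on the log2 scale for the 10 pairs of tested members. This describes shared group differences, since the libraries of 4 groups share their treatment and depth. Reads of CXCL1, CXCL2 and CXCL3 may be divided imperfectly between these paralogs: 5.33%, 10.1% and 5.26% of the 50-base words in their canonical transcripts also occur in another member, against 0% for CXCL5, CXCL6 and CXCL8.

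Some neighbouring genes outside the family were also called. Within 1 Mb of the chemokine cluster the table listed 12 other genes, of which 5 were tested. EREG and AREG, which encode the epidermal growth factor receptor ligands epiregulin and amphiregulin, stood at 46.9 ± 3.04 and 60.2 ± 23.4 in proliferating cells and rose to 463 ± 13.2 and 279 ± 10.6 with DMSO (log2 differences 3.28 and 2.28, adjusted p 3.45e-12 and 1.86e-07). Palbociclib lowered them to 129 ± 24.2 and 46.3 ± 6.54 (-1.85 and -2.58, adjusted p 1.91e-08 and 2.40e-07). PARM1, an androgen-regulated mucin-like gene, rose by 3.11 (1.61e-07) and fell by 1.13 with palbociclib (0.00641). ANKRD17 fell by 0.33 with palbociclib (0.0233) and AFP was not called. Thus 3 of the 5 were called higher with irradiation and DMSO, where 33.0% of all genes tested were. With palbociclib 4 were called lower, against 22.3% of all genes tested. With ruxolitinib 0 of the 5 were called, against 4.52% of all genes tested in either direction. Counts among 5 genes are too small to describe the region. The platelet chemokine genes PPBP, PF4 and PF4V1, which sit among the ligands, averaged at most 1.20 normalized counts in any group and were not tested.

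**Figure D3:**
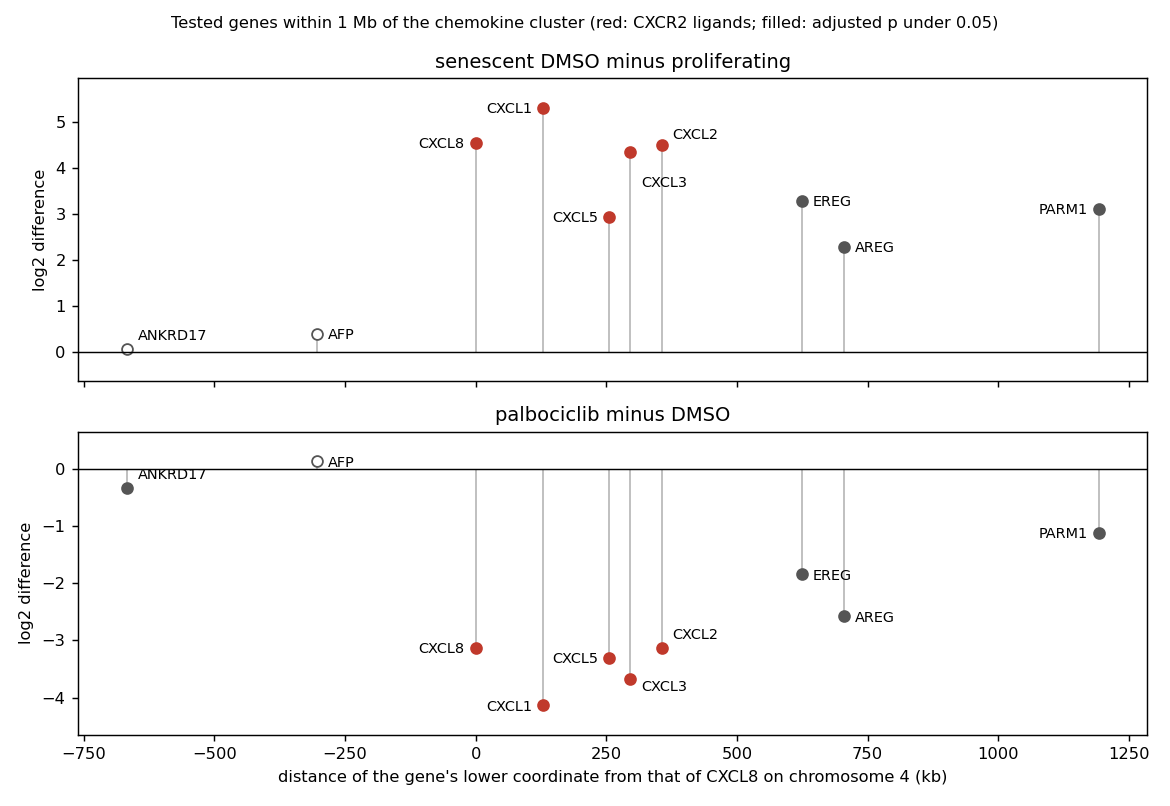
Log2 differences of the tested genes within 1 Mb of the cluster, plotted against the distance in kb from the lower coordinate of CXCL8. Red points are ligands, grey points other genes, and filled points were called. EREG, AREG and PARM1 rose with irradiation and fell with palbociclib, in the second comparison by -2.58 to -1.13 against -4.14 to -3.13 for the ligands.

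Transcripts of the receptors were close to absent. CXCR2 had 0 to 3 reads and CXCR1 0 to 2 reads in each library, and ACKR1, an atypical receptor that binds these chemokines, was listed at 0 in all 12. A count of 0 in a library allows up to 3 reads, so a low level was not excluded, and no receptor was tested.

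The other CXC chemokines included 2 interferon-inducible genes that were called lower with ruxolitinib as well as with palbociclib. CXCL10 and CXCL11 bind CXCR3, the receptor of activated T cells. CXCL10 stood at 8.30, 7.76 and 4.76 in proliferating libraries, 398.9, 491.3 and 488.0 with DMSO, 54.2, 56.9 and 47.1 with palbociclib, and 114.2, 123.4 and 139.0 with ruxolitinib. It rose by 5.88 (adjusted p 2.34e-13), fell by 3.10 with palbociclib (2.87e-09) and fell by 1.86 with ruxolitinib (5.50e-06). CXCL11 rose at least 51.2-fold, to 158.7 ± 9.56, and fell to 11.1 ± 5.89 with palbociclib (-3.88, 7.38e-06) and to 29.3 ± 5.33 with ruxolitinib (-2.41, 0.00589). CXCL12, the CXCR4 ligand, was at 144 ± 9.84 in proliferating cells and 142 ± 6.90 with DMSO (-0.02, 0.931) and fell by 1.25 with palbociclib (2.62e-05). Relative to CXCL8 in the same library, CXCL10 was 1.77 and CXCL11 2.32 lower on the log2 scale with ruxolitinib than with DMSO, without overlap (exact permutation p = 0.1 each, the smallest possible, 0.263 adjusted over 21 tests). The other 7 genes of the list of 10 had a mean under 10.

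The counts of calls in the lists that follow stand against the shares of all genes tested, which were 33.0% higher and 39.3% lower with irradiation and DMSO, 26.0% and 22.3% with palbociclib, and 1.10% and 3.42% with ruxolitinib. Among the 24 cytokines, receptor chains and adaptors known to induce the ligands, 19 were tested. With irradiation and DMSO 12 rose and 6 fell, with a median difference of 0.47 against -0.05 for all genes tested. The split depends on scaling: at equal library totals it was 12 and 1. IL1A and IL1B encode the 2 forms of interleukin-1. IL1A stood at 1.04, 6.65 and 7.62 in proliferating libraries and at 67.3, 62.7 and 57.8 with DMSO, a rise of 3.63 (adjusted p 1.94e-06). IL1B stood at 6.23, 23.3 and 20.9, and at 73.2, 93.5 and 93.7 with DMSO, a rise of 2.48 (4.82e-05). The receptor IL1R1 rose by 0.88 (1.04e-08), the adaptor MYD88 by 0.53 (1.27e-06) and IL6 by 2.02 (1.00e-09). TNF was listed at 0 in every library.

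With palbociclib 4 of the 19 rose and 8 fell (median -0.16, all genes 0.02). Scaled to the same total, 0 rose and 13 fell. IL1A fell to 3.32, 4.38 and 2.66 (-3.85, adjusted p 4.43e-06) and IL1B to 6.64, 3.28 and 10.7 (-3.59, 4.00e-06), and IL1A lay within its proliferating range. IL1R1 fell by 0.74 (4.14e-07), MYD88 by 0.63 (9.20e-07), and IL6 by 1.42 (3.30e-07). With ruxolitinib 1 rose and 3 fell (median -0.10, or 0 and 3 scaled to the same total). MYD88 fell by 0.81 (2.71e-07), while IL1A was at 46.9 ± 9.19 (-0.43, 0.715) and IL1B at 116 ± 10.3 (0.42, 0.693), neither of which passed the test.

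All 18 NF-kB subunits, kinases, inhibitors and target genes on the list were tested. With irradiation and DMSO 11 rose and 3 fell (median 0.32), with palbociclib 1 rose and 10 fell (median -0.47, all genes 0.02, or 0 and 14 scaled to the same total), and with ruxolitinib 1 rose and 3 fell (median -0.08, or 0 and 4 scaled to the same total). Several of its genes encode inhibitors that NF-kB itself induces. TNFAIP3, a deubiquitinase that shuts the pathway off, rose from 235 ± 24.8 to 626 ± 66.9 (1.41, adjusted p 8.29e-09), fell to 123 ± 3.76 with palbociclib (-2.34, 1.72e-10) and to 391 ± 40.83 with ruxolitinib (-0.68, 0.00103). NFKBIA, the inhibitor that holds NF-kB in the cytoplasm, rose by 0.32 (0.00924) and fell by 1.06 with palbociclib (5.60e-07). NFKBIZ, a nuclear cofactor of NF-kB, rose by 1.47 (7.02e-11) and fell by 0.66 (3.64e-06). BIRC3, an NF-kB-induced inhibitor of apoptosis, rose by 1.17 (2.63e-08) and fell by 1.48 (1.06e-08). The subunit NFKB1 fell in both comparisons, by 0.57 (9.04e-06) and 0.56 (3.86e-05). BCL3 also fell in both, by 1.21 (2.16e-08) and 0.38 (0.00505), and TNIP1 rose in both, by 0.32 (4.32e-05) and 0.23 (0.00212). ICAM1, an adhesion molecule and NF-kB target, rose by 1.95 (1.31e-12), was not called with palbociclib (-0.14, 0.110) and fell by 0.42 with ruxolitinib (0.00197).

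Of 19 partner transcription factors and kinases, 17 were tested. With irradiation and DMSO 7 rose and 6 fell (median 0.23, or 11 and 3 scaled to the same total). ATF3, a stress-induced AP-1 family member, rose from 95.4 ± 7.27 to 1152 ± 15.8 (3.58, adjusted p 8.49e-15), and CEBPB, a known activator of these chemokines, rose by 0.75 (3.38e-05). FOSL1, another AP-1 subunit, fell by 1.20 (8.82e-11). With palbociclib 2 rose and 9 fell (median -0.27, or 2 and 14 scaled to the same total). ATF3 fell to 198 ± 3.73 (-2.54, 1.70e-12), FOSB by 1.12 (0.00190) and CEBPD by 0.76 (0.000469). With ruxolitinib 0 rose and 2 fell (median -0.12): ATF3 by 0.79 (4.23e-06) and CEBPD by 0.78 (0.00422).

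Of 10 tested factors that control cytokine mRNA decay, 7 fell with irradiation and DMSO, where 39.3% of all genes tested did, and 1 rose (median -0.57, or 2 rising and 6 falling scaled to the same total, and 3 and 6 to the same upper quartile). HNRNPD (AUF1), which binds AU-rich elements, fell from 8679 ± 357 to 2257 ± 130 (-1.94, adjusted p 3.77e-13). ELAVL1 (HuR), which stabilises such mRNAs, fell by 0.97 (2.40e-09), and KHSRP, which promotes their decay, by 0.95 (5.57e-10). The endonuclease ZC3H12A (regnase-1) rose by 0.71 (8.22e-05). With palbociclib 1 rose and 4 fell (median -0.16), or 0 and 8 scaled to the same total, and ZC3H12A fell by 0.91 (2.58e-05). With ruxolitinib 0 of the 10 were called by limma.

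Of 11 other attractants and growth factors of the senescence secretome, 6 were tested. With irradiation and DMSO 5 rose and 1 fell (median 1.31). CCL20, the CCR6 ligand, rose at least 10.7-fold to 33.1 ± 5.71, and CSF2, the granulocyte-macrophage colony-stimulating factor, rose from 9.57 ± 1.83 to 43.3 ± 4.18 (2.08, adjusted p 7.03e-06). With palbociclib 5 fell and 0 rose (median -0.67): CCL20 fell at least 10.7-fold, to 3 reads or fewer per library, and CSF2 by 2.18 (1.59e-05). The exception in the authors' scaling was the monocyte attractant CCL2, at 974 ± 110 with DMSO and 819 ± 117 with palbociclib (-0.25, 0.0818). Scaled to the same total or to the same upper quartile, all 6 tested genes were called lower. With ruxolitinib 1 rose and 1 fell (0 and 1 scaled to the same total), and CCL20 (-0.27, 0.821) and CSF2 (-0.51, 0.425) did not pass the test.

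**Figure D4:**
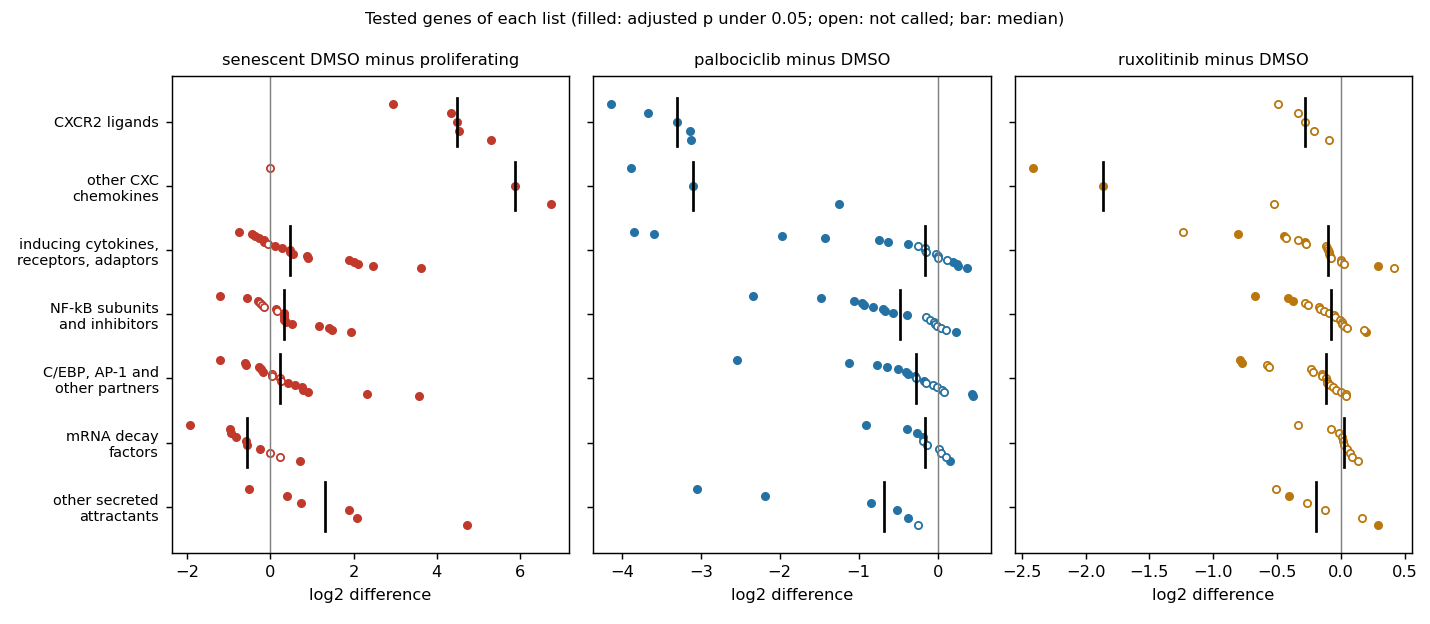
Log2 differences of the tested genes of each list in 3 comparisons, with 1 point per gene, filled where called, and a bar at the median. The ligands lie at one side of 0 in the first 2 panels, with medians of 4.50 and -3.30. The tested other CXC chemokines had similar medians, 5.88 and -3.10. Those of the other secreted attractants were 1.31 and -0.67, and those of the mRNA decay factors -0.57 and -0.16. The lists of inducing cytokines, NF-kB genes and partner factors have medians between -0.47 and 0.47.

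The genes whose profile was most like that of the ligands were found by Pearson r over the 12 libraries, against the mean standardised profile of the 5 tested members. Of the 9589 genes whose mean reached 100 in their highest group, 67 had r above 0.95. The 5 highest were IRAK2 (r 0.992), GDNF (0.991), SLC6A15 (0.986), TENT5A (0.986) and CYP2S1 (0.985). IRAK2, a kinase of the interleukin-1 and toll-like receptor complex, averaged 219 ± 9.55 in proliferating and 541 ± 11.5 in DMSO libraries, then 272 ± 5.18 under palbociclib and 499 ± 14.7 under ruxolitinib. GDNF, a neurotrophic factor, averaged 67.2 ± 7.38, 342 ± 10.7, 77.1 ± 2.62 and 275 ± 6.84 in the same order. For CXCL8 alone the nearest were MDM2 (0.994), IRAK2 and RNF19B (0.992 each), for CXCL2 IL6 (0.981), AVIL and DUSP4, for CXCL1 TIGD7 (0.986), CSRNP2 and CHST11, for CXCL3 TENT5A, SLC6A15 and GDNF, and for CXCL5 ZNF385A (0.984), CYP1B1 and PLK2. By Spearman rho the first 5 ranked 60 to 139. The genes nearest to a single member ranked from 3 (ZNF385A for CXCL5) to 495 (MDM2 for CXCL8, rho 0.776).

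Facts of the libraries bear on these values as follows. The recovered reads of the listed genes ranged from 14106799 to 21762412 per library, with the DMSO libraries the shallowest (14106799 to 16503624). All 10 fibroblast markers were present. Their summed level was 822420 to 854897 in proliferating, 408919 to 419590 in DMSO, 651681 to 683887 in palbociclib and 515852 to 520021 in ruxolitinib libraries. The collagens COL1A1 and COL1A2 and vimentin carried this sum, while THY1 and DCN were higher in every DMSO library than in any proliferating one (9575 to 10271 against 8552 to 9050, and 12686 to 13717 against 11609 to 12044). The summed level of 8 immune markers moved with the ligands, at 556 to 578, 1253 to 1338, 704 to 822 and 1118 to 1183. It was carried by the lysosomal gene CD68. CD14 was at 1.11 to 6.23, 26.0 to 29.7, 7.11 to 16.6 and 11.7 to 20.8 in the same order, CSF1R at 7.76 to 11.4, 18.9 to 22.0, 2.21 to 11.5 and 22.4 to 28.8, and ITGAM at 0 to 1.11 in proliferating and 5.78 to 10.7 in DMSO libraries. The pan-leukocyte marker PTPRC was at most 9.90, LYZ at most 6.57, CD3E at most 2.71 and CSF3R at most 1.80 in any library. The sum of 6 epithelial markers was 1777 to 2241, 1509 to 1726, 3148 to 3690.1 and 1490 to 1635, and that of 4 endothelial markers 5.55 to 9.34, 29.6 to 50.9, 21.0 to 35.03 and 31.6 to 56.7. KRT18 and KRT19 carried the epithelial sum, KRT19 being at 89.5 to 108 in proliferating, 228 to 272 in DMSO and 334 to 471 in palbociclib libraries. EPCAM reached at most 35.5, CDH1 18.8, and KRT5 and SFTPC 0.888. The endothelial markers PECAM1, VWF and KDR were at 1.90 to 2.22, 2.22 to 6.67 and 0 to 1.04 in proliferating libraries and at 9.47 to 12.7, 11.8 to 26.6 and 8.29 to 10.4 in DMSO libraries, and CDH5 was at most 2.71. The part of these markers and of depth in the ligand results was not tested.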

How the data were processed

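RNA sequencing of 12 libraries was analysed from the authors' deposited table of normalized counts, a signal that is never negative. Per the submitters' processing notes, the tools were Trimmomatic 0.38.1, HISAT2 2.2.1, featureCounts 2.0.3, FastQC 0.74, MultiQC and DESeq2 2.11.40.8, with the builds hg38 and GRCh38. The annotation and the strand setting are not given in the sources used here. Every value above 0 (160380 of 160380, 100.0%, tolerance 0.01) was a whole multiple of 1 step per library, so each deposited signal is a gene's reads over a single factor for its library, and the reads themselves could be recovered. In A116 the step is close to 1, so that column says little by itself. The table lists 16383 genes up to Entrez number 140467, so totals are not full depths. Column names carried group and library number but no replicate number. No pair of libraries in a group was identical or alike within counting noise.

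The main test was limma 3.58.1 in R 4.3.3 on log2(value + 1) of the deposited values, with 4 group means over all 12 libraries, a variance trend, a minimum mean of 10 and Benjamini-Hochberg adjustment. Because the same fit pools all groups, the DMSO libraries enter several comparisons. Alternatives were pseudocounts of 0.1 and 5, no filter, a mean of at least 50, 3 other scalings, no trend, the 2 groups compared alone, each library left out, an adjusted p under 0.01, a log2 difference of at least 1, and edgeR 4.0.16 and DESeq2 1.42.0 on the recovered reads. With equal library totals the median log2 difference of all genes moves by 0.23 between DMSO and proliferating cells and by -0.23 between palbociclib and DMSO. The tests were checked on simulated counts with a fixed dispersion, in which only genes well above the filter in proliferating cells were changed. That check does not cover genes with as few reads as the ligands other than CXCL8. Positions and promoters come from RefSeq (GRCh38.p14) and transcript lengths from GENCODE. Genes named are the members, genes of lists, neighbours within 1 Mb and the genes most like the members by r. Members and lists were chosen with earlier results of these data known.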

Additional observations from a re-analysis of the deposited data

How the results depend on the processing

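The calls of the tested ligands between DMSO and proliferating, palbociclib and DMSO, palbociclib and ruxolitinib, and ruxolitinib and proliferating cells were the same under every alternative that tested the gene, with log2 differences of 2.30 to 6.54, -4.35 to -2.47, -4.08 to -2.17 and 2.14 to 6.26. With a mean of at least 50 fewer ligands are tested, and the counts called were 3, 3, 3 and 3 in these comparisons, and 1 between palbociclib and proliferating cells. Without a filter they were 6 each. Between ruxolitinib and DMSO 0 ligands were called under any alternative (lowest adjusted p 0.0576, CXCL3).

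Between palbociclib and proliferating cells the count of 2 became 4 with the same upper quartile, 3 with the same total or without a trend, 1 with only the groups compared, 1 at an adjusted p under 0.01, and 1 to 3 when a library was left out (1 without A120). Under quantile normalization it was 1 higher and 1 lower, and CXCL3 reversed to -0.29 (adjusted p 0.459). The cause was not tested.

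The summed level was 80.2 in proliferating cells with the same upper quartile (92.2 in the authors' scaling), 2234 with DMSO at the same total (2050.1) and 2055 with ruxolitinib at the same upper quartile (1876). The share of the summed increase removed by palbociclib was 92.6% to 93.9% with a library left out and 72.2% on the log2 scale, where high values are compressed.

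The background depends on the setting. For ruxolitinib against DMSO limma called 508 genes, 261 (without A122) to 295 (without A116) when a library of those groups was left out (A117 293, A118 276, A123 285, A124 278), 452 to 726 when one of the others was, 1831 with only the groups compared, 246 at an adjusted p under 0.01 and 75 with a log2 difference of at least 1. The split of higher and lower calls between DMSO and proliferating cells was 3714 and 4420, but 5289 and 2970 at the same total, and that between palbociclib and DMSO 2927 and 2505, but 940 and 5176. Between the inhibitors it was 2561 and 1983, but 847 and 4535 at the same total. For palbociclib against proliferating cells it was 3962 and 4336, but 5259 and 3107 at the same upper quartile. For ruxolitinib against proliferating cells it was 3670 and 4443, but 5050 and 3136 at the same total. Requiring a log2 difference of at least 1 left 2254, 674, 530, 2465 and 2306 genes in the comparisons of DMSO with proliferating, palbociclib with DMSO, palbociclib with ruxolitinib, and palbociclib and ruxolitinib with proliferating cells. An adjusted p under 0.01 left 3022 between the inhibitors.

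No paired analysis was possible because the columns carry library numbers without replicate numbers. Precision is limited by reads for CXCL2, CXCL3 and CXCL6, which had 5, 6 and 2 reads in all in proliferating cells.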
